A study of Mus musculus with 9 samples.

Results

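Flt3, Kit, Csf1r, Csf2ra, Csf2rb, Csf2rb2 and Csf3r, the growth factor receptors that guide dendritic cell development and survival, were followed as 7 genes of the 53458 obtained by summing transcripts. They were listed by name, as the class III receptor tyrosine kinases of blood cells and the subunits of the colony-stimulating factor receptors, by a rule that uses no measured value. All 7 were found, and all 7 were among the 24133 genes that passed the filter on low counts.

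The cells were conventional type 1 dendritic cells, or cDC1, which excel at presenting captured antigen to cytotoxic T cells, from lymph nodes beside the mouse pancreas, and their RNA was sequenced. The labels give 3 stages with 3 libraries each: Healthy, PanIN and Tumor, where PanIN stands for pancreatic intraepithelial neoplasia, a lesion that precedes pancreatic cancer. The series title names KPC, the name of a genetic model of pancreatic cancer. Strain, genotype, age and treatment of the mice behind each stage, the sort that isolated the cells, and whether a library came from 1 mouse or a pool are not stated in the labels. The p-values below therefore cover only the variation among these libraries, and that may be technical. Healthy 1, PanIN 1 and Tumor 1 share a code in their titles, whose meaning the labels do not state. Libraries are numbered in accession order, so a number pairs nothing.

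Each library held between 32150281 and 68934430 estimated counts. All 9 cDC1 markers were present in every library and summed to between 3987 and 14580 CPM (read counts scaled to library size). The 8 markers of cDC2 and monocyte-derived dendritic cells summed to 43.1 to 159 CPM. Markers of some other cells reached higher sums. The 8 T cell markers summed to 105 to 606 CPM, highest in Tumor 1. The 12 monocyte and macrophage markers summed to 125 to 566 CPM, and 6 plasma cell markers to 88.7 to 334. Healthy 2 stood apart in genes of mature migratory dendritic cells, whose 8 listed members summed to 704 CPM there and to between 4229 and 15160 CPM in the other 8 libraries. Because the cells were measured in bulk, fewer cells of a type and less RNA per cell cannot be told apart.

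As background, Flt3 is the receptor through which Flt3 ligand drives the formation of dendritic cells from bone marrow progenitors and their upkeep in tissues. Kit, the receptor for stem cell factor, and Csf1r, the receptor for macrophage colony-stimulating factor and interleukin-34, are tyrosine kinases of the same class, best known from progenitors and mast cells and from monocytes and macrophages. GM-CSF acts through a different kind of receptor, with a ligand-binding alpha chain (Csf2ra) and a signalling beta chain (Csf2rb) that also serves interleukin-3 and interleukin-5 and activates Jak2 and Stat5. Mice carry another, closely related beta chain, Csf2rb2, that serves interleukin-3 alone. Csf3r, the receptor for G-CSF, belongs to the neutrophil lineage.

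On GRCm38, Flt3 lies on chromosome 5 from 147330741 to 147400489 on the minus strand and Kit on chromosome 5 from 75574916 to 75656722 on the plus strand. Csf2ra lies on chromosome 19 from 61223957 to 61228429 on the minus strand. The beta chains are neighbours on chromosome 15 in opposite orientation, Csf2rb from 78325752 to 78353847 on the plus strand and Csf2rb2 from 78282507 to 78305721 on the minus strand. Csf3r lies on chromosome 4 from 126024550 to 126044440 on the plus strand. An antisense gene, Gm26597, overlaps the start of Flt3, and Hmgxb3 overlaps the end of Csf1r from the other strand. Whether quantification used the strand is not stated, so reads of these overlaps may not be told apart.

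The sequences of the beta chains bear on how far their values can be told apart. Over 2694 aligned columns of coding sequence they were 92.91% identical, with an identical run of up to 242 bases. A stretch of 90 coding bases on chromosome 15, from coding base 308 of Csf2rb and 311 of Csf2rb2, is shown because it is one of the places where they part, with the 16 differing bases in capitals.
Csf2rb: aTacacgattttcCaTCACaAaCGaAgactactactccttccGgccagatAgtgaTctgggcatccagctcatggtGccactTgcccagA
Csf2rb2: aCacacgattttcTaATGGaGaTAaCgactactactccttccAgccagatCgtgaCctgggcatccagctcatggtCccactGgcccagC
Of the 31-base words of the main Csf2rb transcript, 30.2% occurred in transcripts of other genes, 28.9% in Csf2rb2, and 30.9% of those of Csf2rb2 were shared. For Csf3r the share was 27.0%, and 23.3% of its words were shared with AC105061.2, an annotated pseudogene. Csf2ra shared 1.15% of its words, and Flt3, Kit and Csf1r shared none. Counts of Csf2rb, Csf2rb2 and Csf3r therefore depend on how the quantifier divided shared reads. A single transcript of each receptor was searched, for Kit a full-length one, so the other Kit transcripts are not covered.

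Per unit of transcript length, Flt3 was the most abundant of the 7 receptors in 9 of 9 libraries, and Csf1r and Csf3r were the scarcest. In TPM, the deposited length-scaled values with which genes can be compared with each other, Flt3 stood at 89.8, 114 and 53.5 in Healthy 1 to 3, at 103, 129 and 141 in PanIN and at 77.9, 93.6 and 125 in Tumor. It held 34.3% ± 2.16 (SD, n = 9 libraries) of the summed TPM of the 7 receptors, within a range of 31.5% to 38.3%. The receptor of the ligand that drives dendritic cell formation was thus the leading one in each library, and its share varied little.

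Csf2rb came next and stood below Flt3 in all 9 libraries, with a median ratio of Flt3 to Csf2rb of 1.36 (1.12 to 1.89). Csf2rb was above Kit in 7 of 9 libraries, and Kit above Csf2ra in 5 of 9, so these 3 neighbours in the order do not separate. Csf2ra was above Csf2rb2 in 9 of 9, with a median ratio of 2.35. Csf2rb2 was above Csf1r in 9 of 9, with a median ratio of 11.6, and Csf1r above Csf3r in 9 of 9.

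**Figure D1:**
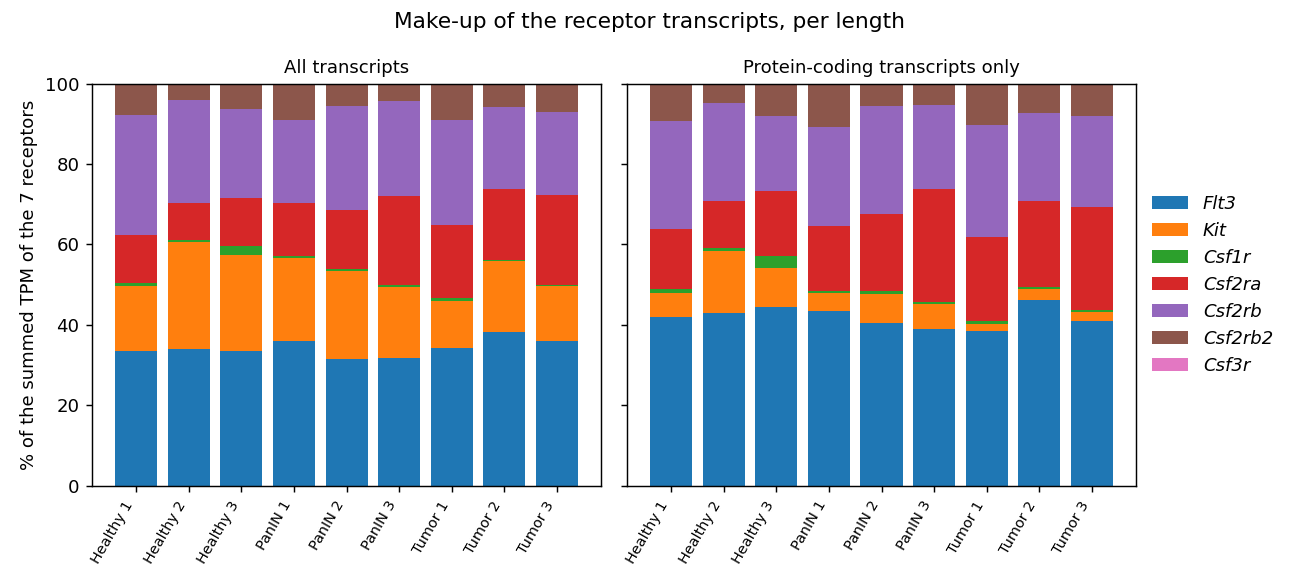
Each bar is 1 library and shows the percent of the summed TPM of the 7 receptors that each receptor took, from all transcripts on the left and from protein-coding transcripts alone on the right. Flt3 is the largest block in every bar, between 31.5% and 38.3% on the left, and the Kit block shrinks from a mean of 18.9% to 6.21% when transcripts without a coding sequence are left out.

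Kit's place depended on which transcripts were counted. Its TPM over all transcripts was 43.9, 89.4 and 38.3 in Healthy, then 59.1, 90.6 and 78.1 in PanIN, then 26.3, 42.8 and 47.4 in Tumor. Over its 2 protein-coding transcripts alone, the TPM was 12.4, 40.8 and 11.5 in Healthy, then 10.1, 23.2 and 21.8 in PanIN, then 3.40, 5.61 and 7.29 in Tumor. A 392-base transcript annotated with a retained intron took 14.0% to 53.1% of Kit TPM, since short transcripts weigh heavily per length. The coding transcripts placed Tumor below both other stages in every library, while the sum did not. Counting coding transcripts alone was chosen after seeing the data. On the log2(TPM + 1) scale, with all transcripts summed, the median over all genes was -0.155 in Tumor against PanIN and -0.046 in Tumor against Healthy. The share of genes whose coding TPM places Tumor below both other stages is not given here.

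Between stages, no receptor gene passed the test at the level of the whole gene. The quasi-likelihood test of edgeR, adjusted by Benjamini-Hochberg over 24133 genes, called 0 of 7 receptors in PanIN against Healthy, where 0% of all genes were called. It called 0 of 7 in Tumor against Healthy, where 0.0249% of all genes were called, 0 of 7 in Tumor against PanIN (0.0124%), and 0 of 7 for any difference among stages (0.0207%). At an unadjusted p under 0.05, PanIN against Healthy had 1 receptor higher (Csf2ra), against 4.82% of all genes, and 1 lower (Csf1r), against 5.65%. Tumor against Healthy had 2 higher (Csf2ra and Csf2rb), against 6.82%, and 1 lower (Csf1r), against 11.0%. Tumor against PanIN had 0 in either direction, against 2.02% higher and 2.52% lower. DESeq2 called 0 of 7 in each pairwise comparison, against 0.771% of all genes in PanIN against Healthy, 6.20% in Tumor against Healthy and 0.124% in Tumor against PanIN. limma-voom with sample quality weights called 1 of 7, Csf2ra, against Healthy in PanIN (adjusted p = 0.0284), where it called 14.1% of all genes, and in Tumor (adjusted p = 0.0427), where it called 8.23%.

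**Figure D2:**
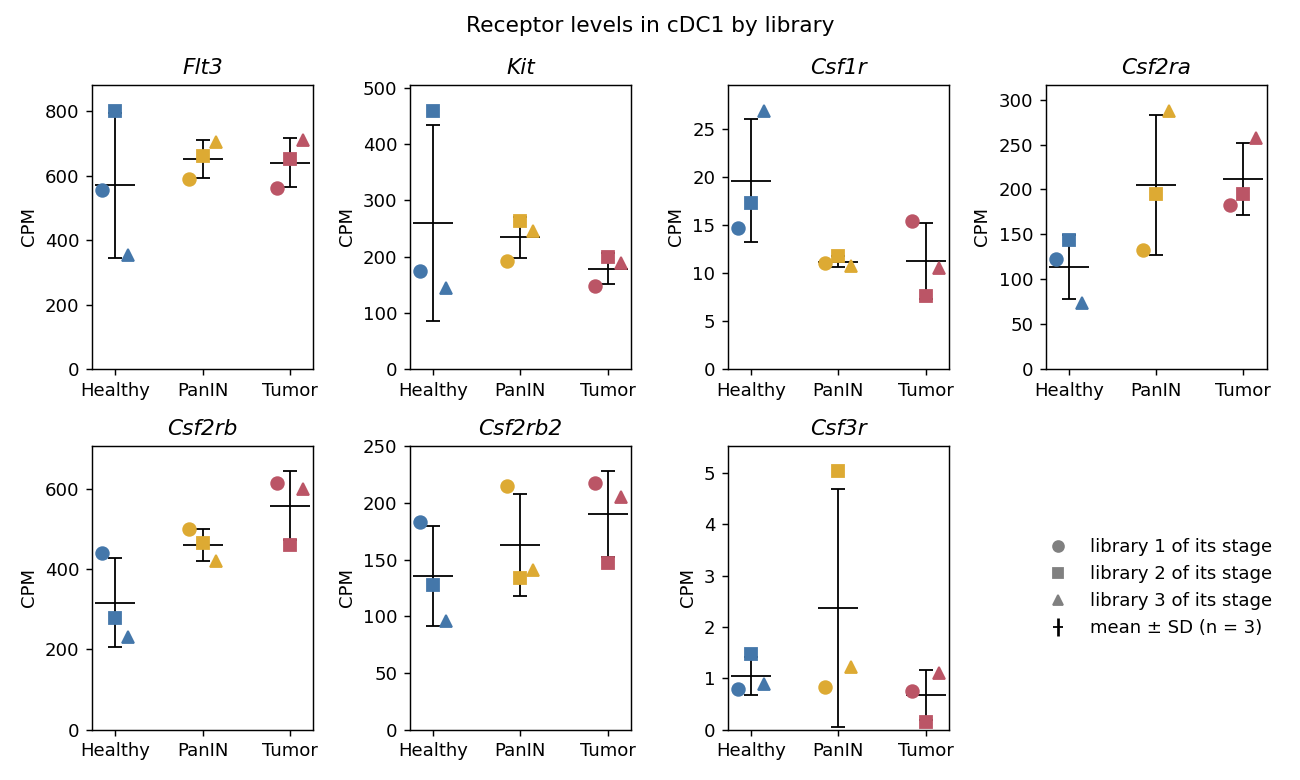
CPM of each receptor by stage, 1 marker per library, with the mean and SD of the 3 libraries of a stage in black and a linear axis from 0. Csf2ra and Csf2rb lie higher in all 3 Tumor libraries than in all 3 Healthy libraries, and the Kit value of 459 CPM in Healthy 2 lies above every other library.

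Flt3 did not separate the stages. On the CPM scale, normalised for library composition, it stood at 555, 802 and 353 in Healthy, at 591, 661 and 706 in PanIN, and at 561, 652 and 710 in Tumor. The Healthy libraries held both the highest and the lowest value of the 9, and the groups overlapped. The log2 difference was 0.20 ± 0.30 (SE) for PanIN and 0.17 ± 0.30 for Tumor, both against Healthy, with edgeR adjusted p-values of 0.888 and 0.832. Leaving out Healthy 3 turned both signs, to -0.03 and -0.06. A single coding transcript held 96.9% to 99.7% of Flt3 TPM, so the gene's level was that of the full receptor.

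Csf2ra, the ligand-binding chain of the GM-CSF receptor, was the receptor with the largest difference from Healthy in Tumor. It stood at 122, 144 and 74.0 CPM in Healthy, at 133, 195 and 288 in PanIN, and at 183, 195 and 257 in Tumor. All 3 Tumor libraries lay above all 3 Healthy ones, while PanIN 1 lay within the Healthy range. The log2 difference was 0.90 ± 0.32 in Tumor against Healthy (adjusted p = 0.186 by edgeR), a fold of 1.87, and 0.86 ± 0.32 in PanIN against Healthy (adjusted p = 0.457). Tumor against PanIN gave 0.04 ± 0.32. Within the shared title code, the single libraries ran 122 in Healthy, 133 in PanIN and 183 CPM in Tumor.

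Csf2rb, the signalling beta chain, had the smallest p of the 7 receptors in Tumor against Healthy. It stood at 440, 277 and 230 CPM in Healthy, at 499, 464 and 419 in PanIN, and at 614, 460 and 599 in Tumor. The 3 Tumor libraries lay above the 3 Healthy ones, by a margin of 460 against 440 at the nearest point, and PanIN 3 lay below Healthy 1. The log2 difference was 0.82 ± 0.28 in Tumor against Healthy (adjusted p = 0.174 by edgeR) and 0.54 ± 0.28 in PanIN against Healthy (adjusted p = 0.519). Without Healthy 2 and Healthy 3 together, the first was 0.34 ± 0.25. The shared-code libraries ran 440, 499 and 614 CPM.

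Csf2ra and Csf2rb were the 2 of 7 receptors whose Tumor libraries all lay above Healthy, where 9.02% of all genes did, and 0 of 7 lay wholly below, against 9.06%. In PanIN against Healthy, 0 of 7 lay wholly above, against 7.40% of genes, and 1 of 7, Csf1r, wholly below, against 4.81%. In Tumor against PanIN, 0 of 7 lay apart in either direction, against 8.33% higher and 7.26% lower.

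The Csf2rb difference was not seen in TPM summed over all transcripts. limma on log2(TPM + 1) gave -0.07 ± 0.37 for Tumor against Healthy, where the median over all genes on that scale was -0.05. Csf2rb has 2 short annotated transcripts, of 328 and 340 bases, that held 25.0% and 46.0% of its TPM in Healthy 2. The full-length transcript of 4764 bases stood at 46.0, 24.9 and 22.2 TPM in Healthy, at 57.1, 57.4 and 51.0 in PanIN, and at 55.3, 44.2 and 67.7 in Tumor. By that transcript all PanIN libraries lay above all Healthy ones and Tumor 2 lay below Healthy 1. In PanIN against Healthy, the median over all genes on the log2(TPM + 1) scale was 0.108. The share of all transcripts whose PanIN libraries lie above Healthy in TPM is not given here.

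Csf2rb2, the interleukin-3 beta chain, stood at 183, 128 and 95.6 CPM in Healthy, at 215, 134 and 141 in PanIN, and at 217, 147 and 206 in Tumor. The stages overlapped, and Healthy 1 lay above PanIN 2, PanIN 3 and Tumor 2. The log2 difference was 0.49 ± 0.29 in Tumor against Healthy (adjusted p = 0.423 by edgeR). When both beta chains were summed to 1 gene, Tumor against Healthy gave 0.73 ± 0.29 (adjusted p = 0.220). Across the 9 libraries the beta chains had the highest correlation of any pair of receptors (r = 0.875 of log2 CPM, 9 libraries, a description), and they share reads.

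The balance of beta to alpha chain depended on which Csf2rb transcripts were counted. Over all transcripts, the TPM ratio of Csf2rb to Csf2ra was 2.55, 2.86 and 1.82 in Healthy, then 1.58, 1.77 and 1.06 in PanIN, then 1.42, 1.15 and 0.937 in Tumor. Every Healthy library lay above every PanIN and Tumor library, and the means were 2.41 ± 0.54, 1.47 ± 0.37 and 1.17 ± 0.24 (SD, n = 3). This separation was lost without the short Csf2rb transcripts described above. With the full-length transcript alone the ratio was 1.46, 0.823 and 1.14 in Healthy, then 1.52, 0.956 and 0.519 in PanIN, then 1.33, 1.02 and 0.879 in Tumor, and the stages overlapped. They also overlapped over protein-coding transcripts, with means of 1.69 ± 0.50, 1.23 ± 0.42 and 1.08 ± 0.24 (SD, n = 3), and in CPM, with means of 2.88 ± 0.86, 2.53 ± 1.15 and 2.68 ± 0.59 (SD, n = 3). The ratio was not tested.

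Csf1r was scarce, and its means outside Healthy were lower without passing the test. It stood at 14.7, 17.3 and 26.9 CPM in Healthy, at 11.0, 11.8 and 10.8 in PanIN, and at 15.5, 7.63 and 10.6 in Tumor. The PanIN libraries lay below every Healthy library, and Tumor 1 lay within the Healthy range. The log2 difference was -0.81 ± 0.33 in PanIN against Healthy (adjusted p = 0.457 by edgeR) and -0.81 ± 0.33 in Tumor against Healthy (adjusted p = 0.226). Without Healthy 3, both were -0.50.

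Some markers of macrophages and of cDC2 were highest where Csf1r was highest, in Healthy 3, and others were not. Of the 12 monocyte and macrophage markers 3 were highest there, and of the 8 markers of cDC2 and monocyte-derived dendritic cells 4. In Healthy 3 Mertk, an uptake receptor of macrophages, stood at 8.47 CPM against 1.15 to 3.48 elsewhere, and Sirpa, a receptor of cDC2 and macrophages, at 114 against 21.8 to 42.7. C1qa, a complement gene of macrophages, was highest in Tumor 1, at 7.95 CPM, and at 5.63 in Healthy 3. Lyz2, the lysozyme of myeloid cells, stood at 120, 260 and 115 CPM in Healthy, and Ccr2, a chemokine receptor of monocytes, at 136, 277 and 163, both highest in Healthy 2. Over the 12 monocyte and macrophage markers the sum was 290, 566 and 318 CPM in Healthy, and ran from 203 to 361 in PanIN and 125 to 207 in Tumor, with Vsig4 at 0 in all. Their part in the Csf1r result was not tested.

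Csf3r, the G-CSF receptor, was near the limit of detection except in PanIN 2. Its counts were 27, 56 and 73 in Healthy, then 31, 195 and 54 in PanIN, then 29, 6 and 40 in Tumor, or 0.14 to 1.47 CPM in 8 libraries and 5.03 CPM in PanIN 2. The PanIN mean rested on PanIN 2. The log2 difference in PanIN against Healthy was 1.17 ± 0.83 (adjusted p = 0.680 by edgeR) and was -0.02 without PanIN 2. Tumor against PanIN gave -1.82 ± 0.85 (adjusted p = 1), and -0.62 without PanIN 2.

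Neutrophil transcripts stood high in PanIN 2 as well. S100a9, a calcium-binding protein abundant in neutrophils, stood at 12.0 CPM there, 7.77 in PanIN 3 and at most 1.85 elsewhere, and Ngp, a granule protein, at 8.13, 7.20 and at most 0.50. PanIN 3 carried these genes with Csf3r at 1.22 CPM. The 11 neutrophil markers summed to 3.43 to 43.0 CPM in PanIN, 1.23 to 4.30 in Healthy and 3.40 to 9.20 in Tumor, and Elane was at 0 in all. B cell markers were highest in PanIN 2 too, summing to 237 CPM against 25.9 to 67.0 elsewhere. Their part in the Csf3r values was not tested.

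**Figure D3:**
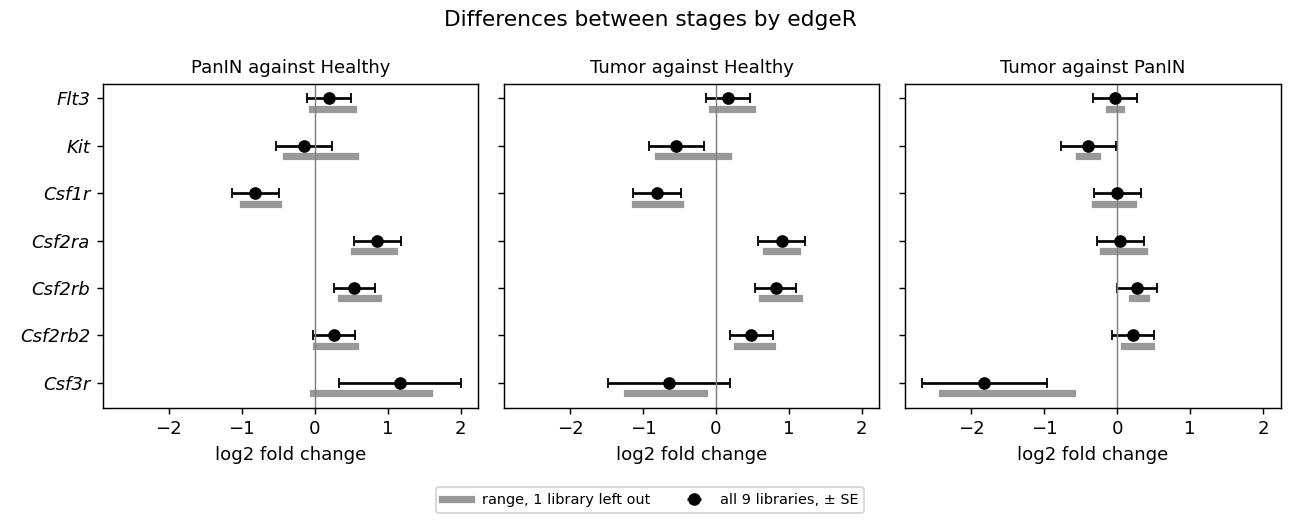
Log2 fold change of each receptor in the 3 stage comparisons by edgeR over all 9 libraries (points, with SE as bars), and the range when 1 library was left out (grey lines). Csf2ra and Csf2rb stay above 0 and Csf1r below 0 in both comparisons with Healthy, whereas Kit and Flt3 cross 0 and Csf3r reaches -0.02 in PanIN against Healthy.

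Kit as a whole gene did not separate the stages, while all 3 Tumor libraries lay below the other 6 in its full-length transcripts and above them in an internal transcript. Neither difference passed the test, and the split between these transcripts is an estimate of the quantifier. The gene stood at 175, 459 and 143 CPM in Healthy, at 193, 264 and 246 in PanIN, and at 147, 199 and 189 in Tumor. The stages overlapped, with Healthy 2 the highest of the 9. The log2 difference in Tumor against Healthy was -0.54 ± 0.38 (adjusted p = 0.505 by edgeR) and turned to 0.17 without Healthy 2.

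Kit has 2 full-length coding transcripts with 21 exons and a transcript of 5 exons and 3175 bases that starts inside intron 16, annotated with a retained intron. This internal transcript runs from 75649094 to 75656694 on chromosome 5, and its first exon joins 453 intronic bases to exon 17, which codes for part of the kinase domain. The 80 bases around that boundary are shown because the forms part there, with the shared bases of exon 17 in capitals: the full-length form has the end of exon 16 before them and the internal form has intron 16.
Kit full-length: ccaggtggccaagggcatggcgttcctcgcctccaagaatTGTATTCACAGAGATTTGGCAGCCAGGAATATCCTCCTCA
Kit internal: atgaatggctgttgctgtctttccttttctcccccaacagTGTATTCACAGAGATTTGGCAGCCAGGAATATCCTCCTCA
The printed intronic bases lie at 75649507 to 75649546. As background, a truncated Kit whose transcription starts within intron 16 is known from mouse male germ cells. Whether the internal counts here come from such a start was not tested. Of the 3175 bases of the internal transcript, 453 are these intronic bases, and the exonic rest can share reads with the full-length transcripts. The values of both forms therefore depend on how the quantifier divided such reads. They are not separate measurements.

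The full-length transcripts stood at 112, 413 and 110 CPM in Healthy, at 84.3, 170 and 158 in PanIN, and at 35.8, 57.1 and 60.1 in Tumor. All 3 Tumor libraries lay below the other 6. The internal transcript stood at 53.4, 33.2 and 25.5 CPM in Healthy, at 94.6, 69.5 and 69.5 in PanIN, and at 106, 131 and 117 in Tumor. Its 3 stages did not overlap, with Healthy lowest and Tumor highest. Over all genes, Tumor lay wholly below Healthy in 9.06% and below PanIN in 7.26%. Tumor lay wholly above Healthy in 9.02% and above PanIN in 8.33%, and PanIN above Healthy in 7.40%. The share of genes in which Tumor lay apart from both other stages in CPM is not given here.

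The Kit transcripts were singled out after their values were seen. With Kit split into these forms and 24135 features fitted together, the full-length form gave a log2 difference of -2.05 ± 0.49 in Tumor against Healthy (adjusted p = 0.167 by edgeR), a fold of 0.241. The internal form gave 1.66 ± 0.28 (adjusted p = 0.118), a fold of 3.17. Neither passed over all features, and the adjustment does not cover the choice of this gene. Without Healthy 2 the full-length difference was -1.12 (adjusted p = 0.0412) and the internal one 1.59 (adjusted p = 0.0163), and 8.51% of all genes were called in that setting. Over the 19 alternatives the adjusted p of the full-length form ran from 0.00336 to 0.389, with 4 past the threshold, and that of the internal form from 6.4e-05 to 0.361, with 5. Both forms passed without Healthy 2, with DESeq2 (6.20% of all genes called), with limma-voom and sample quality weights (8.23%) and with no filter on low counts (2.82%), and the internal form also without Healthy 1 (0.163%).

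PanIN lay between the other stages in every library of the internal form, but only in the mean of the full-length form, where PanIN 2 and PanIN 3 lay above Healthy 1 and Healthy 3. Against Healthy, the internal form gave 1.06 ± 0.28 (adjusted p = 0.351 by edgeR) and the full-length form -0.62 ± 0.48 (adjusted p = 0.707). The full-length difference turned to 0.31 without Healthy 2, to 0.29 without both Healthy 2 and Healthy 3, and to 0.38 with limma-voom and sample quality weights. Tumor against PanIN gave -1.43 ± 0.48 for the full-length form and 0.60 ± 0.27 for the internal form, with edgeR adjusted p-values of 1 for both. Within the shared title code, the full-length form ran 112, 84.3 and 35.8 CPM from Healthy to PanIN and Tumor and the internal form 53.4, 94.6 and 106.

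The share on transcripts that start in an intron was taken of the counts on them and on coding transcripts, without other transcripts of the gene. For Kit this share was 32.3%, 7.44% and 18.8% in Healthy, then 52.9%, 29.0% and 30.5% in PanIN, then 74.8%, 69.7% and 66.1% in Tumor. The means were 19.5% ± 12.4, 37.5% ± 13.4 and 70.2% ± 4.41 (SD, n = 3), and Tumor did not overlap the other stages. Such shares moved with stage in many genes. Of 2505 genes with such transcripts, Tumor lay above both other stages in 13.6%, above Healthy in 29.5% and above PanIN in 16.5%. The median share over these genes was 5.58% to 9.32% in Healthy, 11.9% to 12.4% in PanIN and 12.9% to 14.0% in Tumor, with no overlap between stages. Transcripts annotated with retained introns took 3.61% to 4.79% of all counts in Healthy, 5.76% to 6.93% in PanIN and 5.32% to 6.56% in Tumor. Their part in the Kit result was not tested.

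**Figure D4:**
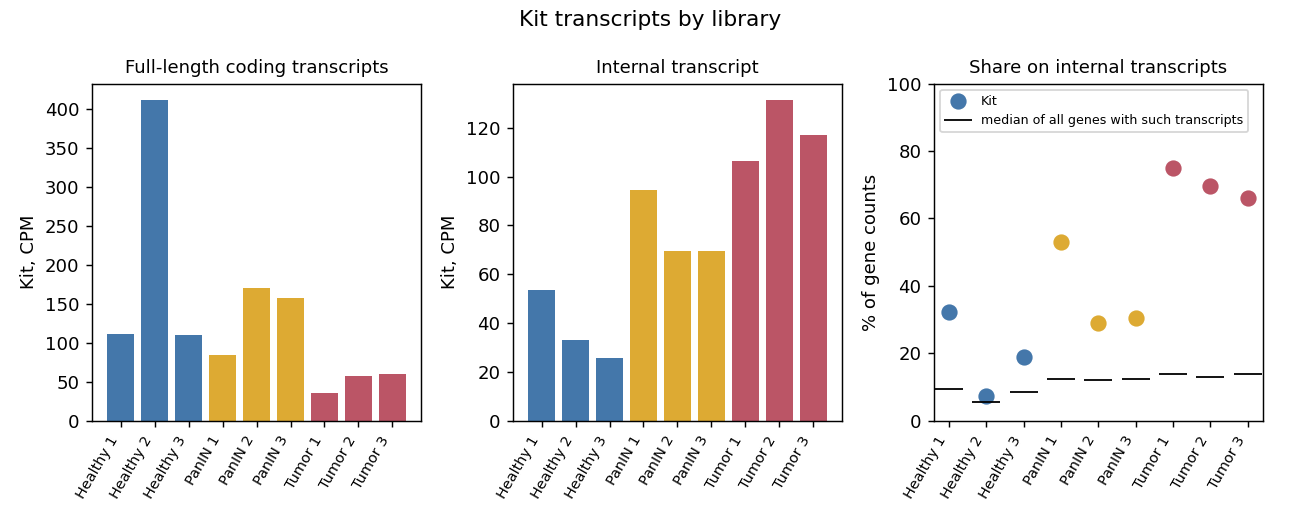
Kit CPM in each library from the full-length coding transcripts (left) and the internal transcript (middle). On the right is the percent of coding and internal Kit counts that lay on internal transcripts, beside the median of the 2505 genes with such transcripts. The full-length bars are lowest and the internal bars highest in the 3 Tumor libraries, and Kit reaches 66.1% to 74.8% there against medians of 12.9% to 14.0%. The split between the forms is an estimate of the quantifier.

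The full-length transcripts differ by an insert of 12 bases at the end of exon 9, at 75639147 to 75639158 on chromosome 5, which adds residues to the outer part of the receptor next to the membrane. It is shown in capitals.
Kit with insert: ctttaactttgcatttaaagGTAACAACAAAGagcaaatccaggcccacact
Kit without insert: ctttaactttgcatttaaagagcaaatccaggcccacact
Of full-length counts, 35.4%, 56.4% and 72.2% in Healthy, then 37.7%, 48.8% and 52.3% in PanIN, then 78.6%, 45.1% and 13.6% in Tumor were assigned to the form with the insert. Both the highest and the lowest share came from Tumor, so no stage stood apart. Mast cells carry abundant Kit, and progenitors carry it as well. Cpa3, a mast cell protease, was at most 0.17 CPM, and the 8 mast cell and basophil markers summed to at most 4.48 CPM in any library. The 8 progenitor markers summed to 18.8 to 53.9 CPM in Healthy, 18.4 to 25.0 in PanIN and 12.9 to 21.2 in Tumor, highest in Healthy 3. The part of such cells in the Kit values was not tested.

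Ligands of these receptors were scarce in the same cells. Of 8 ligand genes, 4 passed the filter on low counts, and 0 were called in any comparison by edgeR. Flt3l, the ligand of Flt3, stood at 4.94 to 13.8 CPM, Csf1 at 3.75 to 28.1 and Kitl, the ligand of Kit, at 2.56 to 15.8, with the highest Kitl in Healthy 3. Kitl gave the smallest p in the comparisons with Healthy, with a log2 difference of -1.37 ± 0.56 in Tumor (adjusted p = 0.235). Csf2, which encodes GM-CSF, and Csf3, which encodes G-CSF, were at most 0.045 and 0.12 CPM, and Il3 was at 0 in all.

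Other chains of the cytokine receptor families stood at moderate levels. Of 8 such genes 7 were tested and 0 were called. Il3ra, the alpha chain that pairs with the beta chains for interleukin-3, stood at 18.4 to 42.3 CPM, and Il5ra at 0.29 to 3.85. Il2rg, the common gamma chain, was the most abundant by TPM and stood at 160, 60.5 and 85.7 CPM in Healthy, at 186, 148 and 99.9 in PanIN, and at 278, 154 and 194 in Tumor. Its log2 difference in Tumor against Healthy was 1.03 ± 0.37 (adjusted p = 0.186 by edgeR). The 8 T cell markers summed to 397, 118 and 184 CPM in Healthy, to 385, 261 and 105 in PanIN, and to 606, 245 and 173 in Tumor. Their part in the Il2rg values was not tested.

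Downstream kinases, adaptors and STATs were expressed in every library. Of 16 genes, 0 were called in any comparison, 13 had a positive log2 difference from Healthy in PanIN and 9 in Tumor, with medians of 0.20 and 0.09 against -0.10 and -0.11 over all genes. Grb2, an adaptor that binds activated receptors, and Stat3, a transcription factor of cytokine signalling, were among the highest by TPM. Stat5a, a transcription factor activated by the beta chains, stood at 79.5, 57.5 and 51.0 CPM in Healthy, at 93.6, 90.5 and 78.0 in PanIN, and at 110, 77.3 and 119 in Tumor. Its log2 difference in Tumor against Healthy was 0.70 ± 0.24 (adjusted p = 0.174 by edgeR), and Tumor 2 lay below Healthy 1. Sos1, an exchange factor that Grb2 recruits, had the smallest p in Tumor against PanIN, at -0.52 ± 0.22 (adjusted p = 1).

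Genes that STAT5 and GM-CSF are known to induce had positive differences throughout, none past the test. Of 10 such genes, 10 had a positive log2 difference from Healthy in PanIN and 10 in Tumor, with medians of 0.42 and 0.86 against -0.10 and -0.11 over all genes, and 0 were called. Pim1, a survival kinase, stood at 246, 152 and 84.3 CPM in Healthy, at 244, 208 and 248 in PanIN, and at 331, 282 and 270 in Tumor, with a log2 difference of 0.88 ± 0.33 in Tumor (adjusted p = 0.197 by edgeR). Id2, a transcriptional regulator that cDC1 need, stood at 540, 611 and 297 CPM in Healthy, at 705, 516 and 735 in PanIN, and at 961, 777 and 849 in Tumor, with 0.84 ± 0.30 (adjusted p = 0.187). In both genes every Tumor library lay above every Healthy and PanIN library. Over all genes, Tumor lay wholly above Healthy in 9.02% and above PanIN in 8.33%. Both genes were named for having the smallest p of this list in Tumor against Healthy. Bcl2l1, an anti-apoptotic gene, had the smallest p of this list in Tumor against PanIN, with an adjusted p of 1.

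Negative regulators of the receptors had mostly positive differences, none past the test. Of 12 genes, 11 had a positive log2 difference from Healthy in PanIN and 9 in Tumor, with medians of 0.60 and 0.70, and 0 were called. Socs2 and Cish are members both of this list and of the STAT5 and GM-CSF response genes, so the lists are not independent. Socs3, a feedback inhibitor of cytokine receptors, stood at 14.2, 12.9 and 11.8 CPM in Healthy, at 22.1, 30.7 and 37.6 in PanIN, and at 38.2, 25.2 and 30.5 in Tumor. Every Healthy library lay below every PanIN and Tumor library. Over all genes, PanIN lay wholly above Healthy in 7.40% and Tumor in 9.02%. Socs3 was named for having the smallest p of this list in both comparisons. The Socs3 log2 difference was 1.21 ± 0.26 in PanIN against Healthy (adjusted p = 0.260 by edgeR) and 1.27 ± 0.26 in Tumor against Healthy (adjusted p = 0.142). Socs1 gave 1.15 ± 0.40 in Tumor against Healthy (adjusted p = 0.177). Cbl, the ubiquitin ligase that removes Flt3, Kit and Csf1r from the surface, had the smallest p in Tumor against PanIN, at -0.83 ± 0.38 (adjusted p = 1).

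Transcription factors and regulators listed for these receptor genes included Spi1, which encodes PU.1, at 169 to 407 CPM, and Irf8, which stood at 1026 to 3329.6 CPM. Of 17 such genes 15 were tested and 0 were called. Id2 is among the 17 and also among the STAT5 and GM-CSF response genes, and whether it acts at the receptor genes was not tested. Batf3, the factor that cDC1 depend on, stood at 84.3, 91.6 and 58.3 CPM in Healthy, at 111, 93.5 and 117 in PanIN, and at 140, 124 and 165 in Tumor, with a log2 difference of 0.88 ± 0.23 in Tumor against Healthy (adjusted p = 0.168 by edgeR). Cebpa, a factor of myeloid progenitors, lay lower in Tumor, at 10.5 to 14.9 CPM against 16.2 to 51.8 in Healthy, with -1.22 ± 0.37 (adjusted p = 0.168). Zbtb46, a factor of conventional dendritic cells, gave 0.77 ± 0.28 in PanIN against Healthy and Myb, a factor of progenitors, 0.94 ± 0.36, both with an adjusted p of 0.457.

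Promoter sequences were at hand for 5 of the 7 receptors in RefSeq (GRCm38.p6). The motif GAGGAAG, a core of PU.1 sites, was searched on both strands of the 250 bases before the start. It occurred in the promoters of Kit, Csf2ra, Csf2rb2 and Csf3r and not in that of Flt3, where 10.6% of all 32851 promoters hold it. TGACGTCA, the cyclic AMP response element, occurred in Csf2ra alone, against 1.55% of all promoters. RUNX (TGTGGTT), E-box (CACGTG) and composite ETS and IRF motifs, also on both strands, were in none of the 5, against 4.40%, 6.02% and 2.30%. The Csf2ra promoter, chr19:61228419-61228668 on the minus strand, is shown because Csf2ra had the largest difference of the receptors in Tumor, with both motifs in capitals. The GAGGAAG matches, 2 in number, overlap each other at its 3′ end.
Csf2ra promoter: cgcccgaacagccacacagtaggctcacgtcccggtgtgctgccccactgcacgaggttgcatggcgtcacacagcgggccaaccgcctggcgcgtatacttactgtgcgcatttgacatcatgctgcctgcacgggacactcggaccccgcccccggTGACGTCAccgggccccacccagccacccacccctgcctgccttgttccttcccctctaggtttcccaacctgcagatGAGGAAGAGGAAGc

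Across libraries, the CPM of the beta chains ranked with genes of mature migratory dendritic cells by Spearman's rho, and no other receptor passed. The index was the mean log2 CPM of 8 such genes, among them Ccr7, the receptor that leads dendritic cells to lymph nodes, and Fscn1, an actin-bundling protein. It was 9.51, 5.71 and 8.54 in Healthy, then 9.74, 9.43 and 8.57 in PanIN, then 10.2, 9.56 and 10.1 in Tumor. Csf2rb gave Spearman's rho of 0.933 over 9 libraries (exact permutation p = 0.00075, adjusted p = 0.00262 over 7 receptors, two-sided) and Pearson's r of 0.762 (exact permutation p = 0.0189, adjusted p = 0.126). Without the 2 libraries farthest from the median index, Healthy 2 and Healthy 3, r was 0.880. Over the 6 libraries that lack the shared code it was 0.703, and the 3 libraries inside are too few for a value. On the log2(TPM + 1) scale, with all Csf2rb transcripts summed, r was -0.09. In Healthy 2, where the index was lowest, the 2 short Csf2rb transcripts held 25.0% and 46.0% of that sum. Their part in the loss of the relation was not tested, and r for the full-length transcript alone is not given here.

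Csf2rb2 gave the same rho, 0.933 (exact permutation, adjusted p = 0.00262), with r = 0.599 (exact permutation p = 0.0755, adjusted p = 0.176), and 0.756 without those 2 libraries. Kit gave r = -0.791 (exact permutation p = 0.0361, adjusted p = 0.126) and rho = -0.417 (exact permutation p = 0.270, adjusted p = 0.377), so neither coefficient passed over the 7 relations, and r = -0.738 without them. After centring within each stage, r was 0.527 for Csf2rb, 0.381 for Csf2rb2, -0.881 for Kit and -0.667 for Flt3. Neither coefficient passed for Flt3, Csf1r, Csf2ra and Csf3r either, with r between -0.405 and 0.229. The beta chains share reads, so theirs are not 2 independent results. The share of all genes that reach a rho of 0.933 is not given here.

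**Figure D5:**
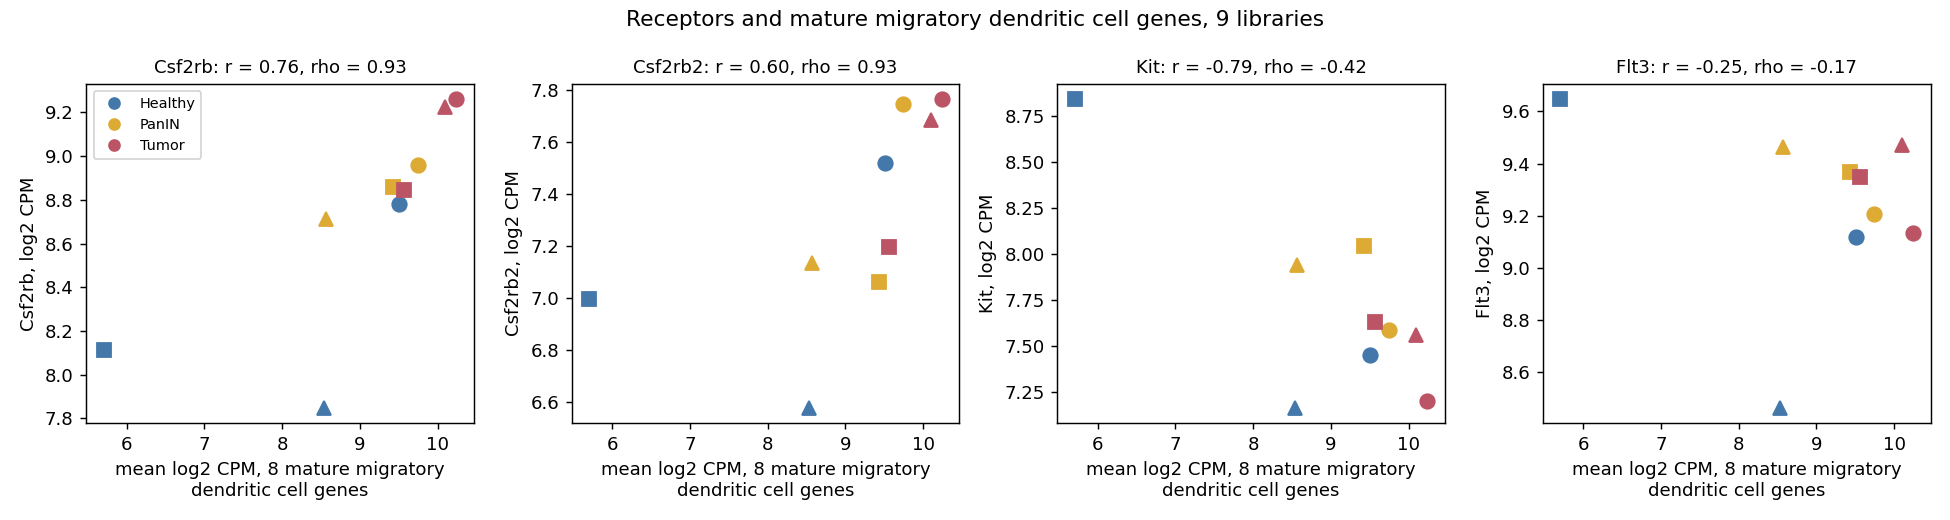
Log2 CPM of Csf2rb, Csf2rb2, Kit and Flt3 (vertical) against the mean log2 CPM of 8 mature migratory dendritic cell genes (horizontal), 1 point per library, coloured by stage. The beta chains climb from left to right with a rho of 0.93, Kit is highest in Healthy 2 at the far left, and Flt3 gives a rho of -0.17.

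Among 9531 protein-coding genes averaging 3 or more on the log2 CPM scale, those most like each receptor across the 9 libraries were named by Pearson's r of log2 CPM, as a description. They were Limd1 (r = 0.991), Fmnl1 (0.988) and Nfkb1 (0.987) for Flt3, and Tceanc2 (0.995), Scarb2 (0.992) and Sipa1l3 (0.986) for Kit. For Csf2ra they were Zfp384 (0.979), Ist1 (0.976) and Lemd2 (0.975). For Csf2rb they were Cables2 (0.989), Myo1g (0.984) and Cpne2 (0.983), and for Csf2rb2 Lrrc8c (0.979), Pnrc1 (0.978) and Traf2 (0.970). Csf1r, with Rcan3 (0.939), Mindy1 (0.932) and Gpsm1 (0.926), and Csf3r, with Rprd2 (0.921), Prr12 (0.896) and Huwe1 (0.891), had weaker partners. All points share library depth and composition, and each value is the highest of 9531.

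Among the receptors themselves, Flt3 varied with Csf2ra (r = 0.769) and Kit (r = 0.733), and Csf1r ran opposite to Csf2ra (r = -0.755) and Csf2rb (r = -0.683), each over 9 libraries and as a description. Csf1r counts sat on either of 2 coding transcripts in different libraries, with 0% to 100% of its TPM on the transcript of 3870 bases, and this split is an estimate from few reads.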

How the data were processed

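For each transcript and library the authors deposited an estimated count and a TPM value. Salmon and mm10 are named in the submitters' processing notes. The deposited file names mention sailfish, so which quantifier was used is open, and no version, settings or use of strand is given in the sources used here. RNA came from a column micro kit and libraries from a directional kit, per the labels' protocols.

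Of 136288 transcripts, 136176 matched GENCODE M21 (GRCm38) by identifier, and these carried 99.963% or more of every library's counts, which were added up per gene and rounded. edgeR 4.0.16 (R 4.3.3) fitted all 9 libraries with stage as the only term, with TMM factors of 0.83 to 1.19, filterByExpr defaults (minimum count 10, minimum total 15), a quasi-likelihood test and Benjamini-Hochberg adjustment over all genes tested, at a threshold of 0.05. CPM carry the TMM factors. The procedure was tested on simulated data. The smallest p that exact permutation of 3 against 3 libraries allows is 0.1. Relations across libraries used all 362880 pairings.

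The members and lists were chosen with earlier results of these data known. Genes named were the receptors and, from the lists, members with the smallest p, the highest TPM or those that define a cell type, and the 3 genes most like each receptor. Some genes covered by this choice are left out of the text. Shares of internal transcripts covered genes with at least 100 mean counts and 20 on transcripts that start in an intron of the longest coding transcript and end in its last exon. They were taken of coding and internal counts together.

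Alternatives were DESeq2 1.42.0, RLE factors, other filters, limma 3.58.1 (voom with sample weights, and log2(TPM + 1) or log2(TPM + 0.1)), fewer libraries, a term for the title code and the summed beta chains. Counting protein-coding transcripts alone and splitting Kit were chosen after seeing the data. Python 3.11.15, pandas 2.3.3 and matplotlib 3.10.9 made the tables and figures.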

Additional observations from a re-analysis of the deposited data

How the results depend on the processing

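No paired analysis by replicate was possible because the labels carry no replicate numbers. A term for the code that 1 library of each stage shares called 0 of 7 receptors in each comparison. Under 21 alternatives for each pairwise comparison and 20 for any difference among stages, the number of receptors called stayed at 0, except with limma-voom and sample quality weights, where it was 1 in PanIN against Healthy, 1 in Tumor against Healthy and 1 for any difference, all Csf2ra. That setting called 3409, 1986 and 3248 genes in all, against 0, 6 and 5. Over all genes Tumor against Healthy also gave 1496 calls with DESeq2, 1041 with no filter on low counts and 2177 without Healthy 2. With 1 library left out, between 0 and 4 of the 7 receptors had a Pearson's r with the migratory genes past the threshold, and the 4 came without Healthy 3. Counts per length of the longest transcript moved the mean share of Flt3 to 38.8%, of Kit to 10.6% and of Csf2rb2 to 8.59%, and protein-coding transcripts alone moved that of Flt3 to 42.0% and of Kit to 6.21%. The causes were not tested. log2(TPM + 0.1) moved the median over all genes from -0.10 to 0.23 in PanIN against Healthy and from -0.05 to -0.34 in Tumor against PanIN. Low counts limit Csf3r, with as few as 6 in a library.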
